A study of Mus musculus with 12 samples.

Results

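The genes described here are 9 genes that mark macrophages or encode their lysozymes, Adgre1, Cd68, Itgam, Mpeg1, Spi1, Cebpa, Cebpb, Lyz1 and Lyz2. They were chosen by name, all 9 were found among the 22243 genes of the deposited table, and the transcripts of each gene were summed. RNA came from 12 cultures of M1-activated bone marrow-derived macrophages (BM-Mɸs), grown from bone marrow of adult C57Bl/6 mice with M-CSF-conditioned medium. Every culture received IFN-γ at 100 U/mL over 16 h, followed by a 6 h exposure to LPS at 100 ng/mL. Of these, 6 carried LysMCre and floxed ErbB4 (ErbB4myeKO) and 6 were littermates with floxed ErbB4 alone (ErbB4FF), with 1 library of each genotype in each of 6 litters. All 12 therefore shared the floxed allele, the strain and the activation, and untreated cells were not part of the comparison.

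The genes fall into a few roles. Spi1 encodes PU.1, the ETS-family transcription factor that sets up the myeloid programme, and Cebpa and Cebpb encode C/EBP factors, of which C/EBPα acts mainly in progenitors and C/EBPβ in mature and activated macrophages. Adgre1 encodes F4/80 and Itgam encodes CD11b, both used to identify macrophages by antibody staining, while Cd68 encodes a glycoprotein of late endosomes and lysosomes and Mpeg1 encodes perforin-2, a pore-forming protein that acts on phagocytosed bacteria. Lysozyme cleaves the peptidoglycan of bacterial walls. The mouse has a pair of neighbouring genes for it, Lyz2 for the M-type enzyme of myeloid cells and Lyz1 for the P-type enzyme best known from Paneth cells of the intestine. In the LysMCre line the Cre recombinase is knocked into Lyz2 and interrupts that allele, and Cre is made in macrophages, monocytes and neutrophils, so that the gene which drives the deletion of Erbb4 is itself among the genes described. LysMCre mice without the floxed allele were not among the 12 libraries, so that an effect of the knock-in allele and an effect of the loss of ErbB4 on any of these genes cannot be told apart. Whether mice carried the knock-in on one or both chromosomes was not on the labels.

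Lyz1 and Lyz2 are so alike that their sequences are shown before their levels. In GRCm38 (GENCODE M21) both lie on the minus strand of chromosome 10, Lyz2 (ENSMUSG00000069516) at chr10:117277331-117282321 and Lyz1 (ENSMUSG00000069515) at chr10:117287797-117292868, and the start of Lyz1 is 10.5 kb from that of Lyz2. Each coding sequence has 447 bases, of which 425 are the same (95.1%), with a longest identical run of 118 bases. The first 75 bases of each coding sequence, from the start codon and within 1 exon, are at chr10:117292764-117292838 for Lyz1 and chr10:117282168-117282242 for Lyz2. They show how little separates reads of the 2 genes, with the 5 bases that differ in capitals.
Lyz1: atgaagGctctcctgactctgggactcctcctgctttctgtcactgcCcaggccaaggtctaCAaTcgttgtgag
Lyz2: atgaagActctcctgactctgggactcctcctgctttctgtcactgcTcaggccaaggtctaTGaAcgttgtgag

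Reads were 75 bases long. A stretch of 75 bases of the Lyz1 transcript was found whole in the Lyz2 transcript at 74 of 1189 positions (6.22%), and the reverse held at 74 of 1242 positions (5.96%). Among stretches of 31 bases, the unit matched by default in kallisto, 34.2% of those of Lyz1 also occurred in Lyz2 and 32.8% of those of Lyz2 in Lyz1. A read from the shared part could therefore be split between the genes by the estimation, and the level of the rarer Lyz1 is the less certain of the pair.

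The regions upstream of the genes were less alike. Over the 300 bases around each start in the RefSeq table (GRCm38.p6), which held 7 of the 9 genes (all but Adgre1 and Spi1), the Lyz1 and Lyz2 promoters were 82.5% identical in an alignment. The 200 bases that end 51 bases before the start are chr10:117292919-117293118 for Lyz1 and chr10:117282323-117282522 for Lyz2, both read on the minus strand. They are shown because they hold nearly all of the differences, with the 50 bases of each that differ from the other gene or face a gap in that alignment in capitals.
Lyz1: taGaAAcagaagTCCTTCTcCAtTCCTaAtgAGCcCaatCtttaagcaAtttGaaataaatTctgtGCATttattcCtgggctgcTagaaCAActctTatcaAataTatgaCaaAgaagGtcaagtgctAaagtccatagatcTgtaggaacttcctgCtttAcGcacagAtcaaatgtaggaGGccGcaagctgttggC
Lyz2: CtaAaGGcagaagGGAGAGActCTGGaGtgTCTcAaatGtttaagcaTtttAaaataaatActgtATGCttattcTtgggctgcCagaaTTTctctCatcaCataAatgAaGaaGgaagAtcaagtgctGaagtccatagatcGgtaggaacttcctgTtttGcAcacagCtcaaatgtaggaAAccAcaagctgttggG

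An AGGAAG hexamer, the core of many PU.1 sites, began 99 bases before the start in both promoters on the minus strand of the printed sequence, where the printed strand reads cttcct. A further AGGAAG lay 137 bases before the start of Lyz2 alone. Of the 7 promoters, those of Itgam, Lyz1 and Lyz2 held AGGAAG on either strand, a motif present in 35.4% of 32851 mouse promoters of this length. TTNNGCAA, a C/EBP-like motif, was found in those of Cd68 and Lyz1 and in 10.8% of all promoters, and TATAAA in those of Cebpa and Cebpb and in 13.6% of all.

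Levels are given in TPM, a length-corrected abundance that allows genes to be compared. Lyz2 was the most abundant of the 9 genes, with a mean of 6791 TPM over the 12 libraries (range 2964 to 13257) and the seventh highest mean of all genes. Mpeg1 followed at 1469 TPM (927 to 1842), Adgre1 at 877 TPM (662 to 1060), Cd68 at 430 TPM (314 to 571), Spi1 at 259 TPM (144 to 360), Cebpb at 139 TPM (98.5 to 257) and Itgam at 123 TPM (86.9 to 175). Lyz1 averaged 32 TPM (7.11 to 79.6). Cebpa was listed between 0 and 1.09 TPM, with 4 libraries at 0, and did not reach the mean of 1 TPM required for testing. The deposited table held 1 of 2 annotated Cebpa transcripts, and 80.5% of its 31-base stretches also occur in another transcript of the gene. Abundance assigned to that other transcript would not be seen here. In each neighbouring pair of this order the first gene was higher in 12 of 12 libraries, except that Cebpb exceeded Itgam in 7 of 12, so that the order of those 2 was not settled. The ranges of Mpeg1 and Adgre1, of Cd68 and Spi1, and of Spi1 and Cebpb overlapped between libraries. As background on the cell type, 9 macrophage markers, some of them among the genes described, were summed. Their sum was 3913 to 7985 TPM in libraries labelled ErbB4myeKO and 3778 to 8922 TPM in those labelled ErbB4FF. Of these markers the receptor gene Csf1r was at 168 to 473 TPM, while Tyrobp was listed from 0 to 327 TPM. The 10 lymphocyte markers summed to at most 2.65 TPM and 7 erythroid markers to at most 0.696 TPM. Other lists were not as low. The 8 stromal cell markers summed to 2.78 to 97.3 TPM in libraries labelled ErbB4myeKO and 11.2 to 91.6 TPM in those labelled ErbB4FF, the 6 osteoclast markers to 11.9 to 70.1 and 11.6 to 83.4 TPM, and the 8 mast cell and basophil markers to at most 3.99 TPM.

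**Figure D1:**
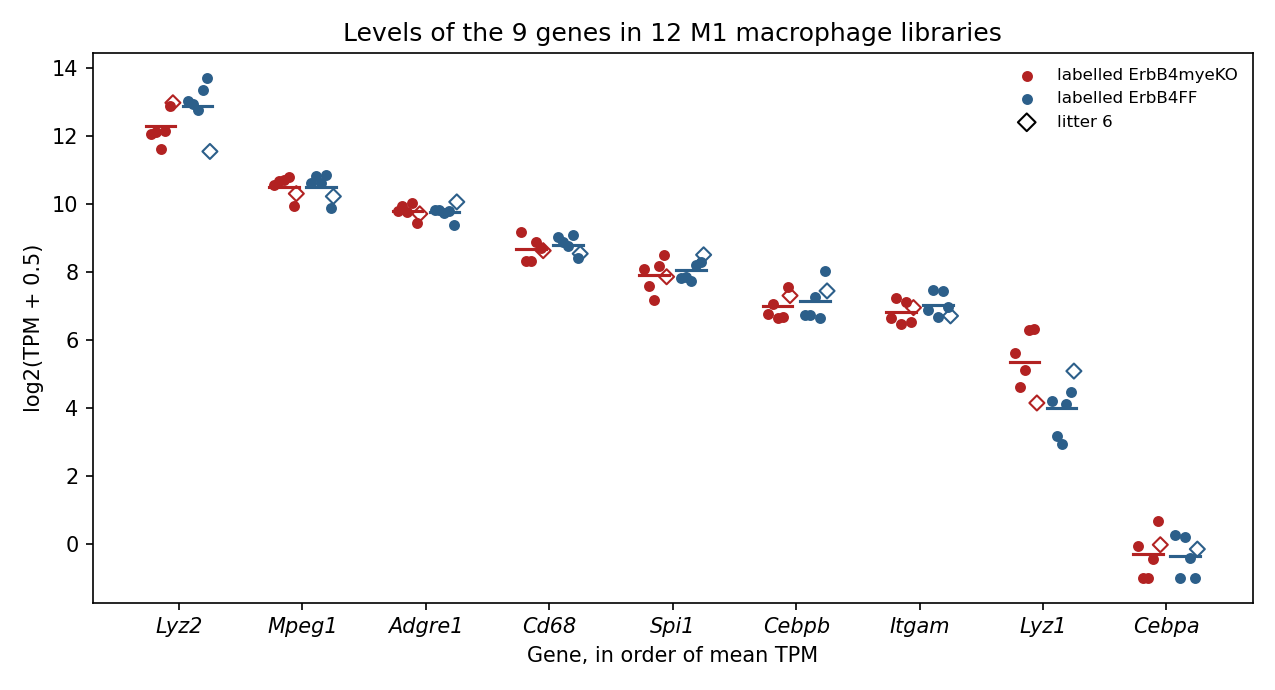
Level of each of the 9 genes in the 12 libraries as log2(TPM + 0.5), in order of mean TPM. Red points are libraries labelled ErbB4myeKO, blue points are libraries labelled ErbB4FF, open diamonds are litter 6 and bars are means of the log2 values. The groups separate in none of the genes, and the litter 6 diamonds of Lyz2 and Lyz1 are the highest or the lowest of their groups.

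The table carries no read depth, but the authors' mean of normalized counts gives the evidence behind each transcript. Their geometric mean was 44243 for Lyz2, 38244 for Mpeg1, 16296 for the main transcript of Adgre1, 3443 for Itgam, 2966 for Spi1, 2799 for Cd68, 1116 for Cebpb, 170 for Lyz1 and 3.15 for Cebpa. Counting error was thus small for every gene but Cebpa, and the spread between litters limits what can be read. For Lyz1, at a far lower count than Lyz2, this leaves out the splitting of reads shared by the 2 genes. The labels give each pair of libraries a shared number and batch letter, which the study treats as the litter, and nothing further on the cultures, so p-values measure the spread between these libraries.

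The targeted gene did not check the labels. Erbb4 was at 0.583 ± 0.242 TPM in libraries labelled ErbB4myeKO and 0.450 ± 0.132 TPM in libraries labelled ErbB4FF (SD, n = 6 each), under the level required for testing, and a TPM over the whole transcript can persist when an exon is deleted. Lyz2 and Lyz1 went against the labels in litter 6, as described next, so groups are named by their labels and the results are given with and without that litter. Whether the labels of the 2 libraries of litter 6 were exchanged was not tested, and an exchange would change every mean over 6 litters.

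Lyz2 was lower in the library labelled ErbB4myeKO than in its littermate in litters 1 to 5, and higher in litter 6. Its level in the libraries labelled ErbB4myeKO was 4272, 4395, 3116, 4491, 7563 and 7997 TPM in litters 1 to 6. The littermates labelled ErbB4FF had 8370, 7823, 6910, 10336, 13257 and 2964 TPM in the same order. The single lowest value of all 12 was therefore in a library labelled ErbB4FF, and the library labelled ErbB4myeKO of litter 6 was the highest of its group. The log2 ratios of ErbB4myeKO over ErbB4FF were -0.97, -0.83, -1.15, -1.20 and -0.81 in litters 1 to 5 and 1.43 in litter 6. Over 6 litters the mean was -0.59 ± 1.00 (SD), a fold of 0.665, and did not pass the test (exact permutation p = 0.219, limma adjusted p = 0.641). Without litter 6 it was -0.99 ± 0.18 (SD), a fold of 0.503, lower in 5 of 5 litters. Without that litter the adjusted p was 0.0556 by limma, above the threshold of 0.05, and the exact permutation p was 0.0625, the smallest that 5 litters allow. Litter 6 was singled out from the ratios of Lyz2 and Lyz1 themselves, so values without it are a description of the other 5 litters and no independent test.

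Lyz1 went the opposite way in every litter. It was at 48.2, 23.7, 33.8, 77.2, 79.6 and 17.1 TPM in the libraries labelled ErbB4myeKO of litters 1 to 6. In the littermates labelled ErbB4FF it was at 17.8, 8.49, 7.11, 16.6, 21.4 and 33.2 TPM. Here too the order of the labels turned over in litter 6 alone, where the library labelled ErbB4myeKO was the lowest and the library labelled ErbB4FF the highest of its group. The log2 ratios were 1.41, 1.43, 2.17, 2.18 and 1.87 in litters 1 to 5 and -0.94 in litter 6. Their mean over 6 litters was 1.36 ± 1.17 (SD), a fold of 2.56, with an exact permutation p of 0.0625 and an adjusted p of 0.603 by limma. Without litter 6 the mean was 1.81 ± 0.38 (SD), a fold of 3.52, higher in 5 of 5 litters, with an adjusted p of 0.0556 by limma under the same reservation as for Lyz2.

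Lyz1 remained a small part of the lysozyme transcripts throughout. Its share of the summed Lyz1 and Lyz2 TPM was 1.12%, 0.537%, 1.07%, 1.69%, 1.04% and 0.213% in the libraries labelled ErbB4myeKO of litters 1 to 6. In those labelled ErbB4FF it was 0.212%, 0.108%, 0.103%, 0.160%, 0.161% and 1.11%. In litters 1 to 5 every share labelled ErbB4myeKO lay above every share labelled ErbB4FF, while in litter 6 the library labelled ErbB4FF lay within the ErbB4myeKO range of the other litters and the library labelled ErbB4myeKO lay at the upper end of the ErbB4FF range of the others, 0.213% beside 0.212%. The mean share was 0.945% ± 0.513 and 0.309% ± 0.393 (SD, n = 6 each), and the mean difference was 0.636 ± 0.828 percentage points in 6 litters and 0.942 ± 0.393 in 5. Lyz1 relative to Lyz2 was 5.22, 4.79, 10, 10.5 and 6.4 times as high in the library labelled ErbB4myeKO in litters 1 to 5 and 0.193 times as high in litter 6. The sum of both genes followed Lyz2 and was 3149 to 7642 TPM in litters 1 to 5 of the ErbB4myeKO label and 6917 to 13278 TPM in those of the ErbB4FF label. In litter 6 the sum was 8014 TPM under the ErbB4myeKO label and 2997 TPM under the ErbB4FF label.

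**Figure D2:**
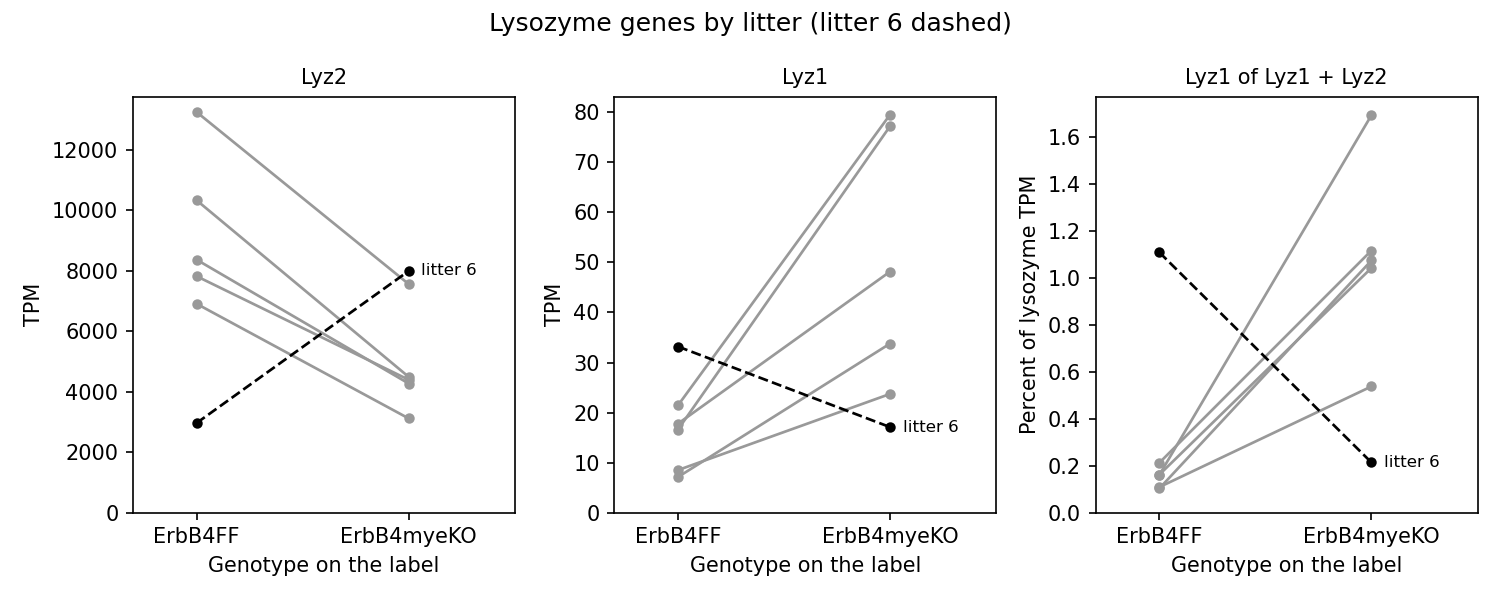
Lyz2 TPM, Lyz1 TPM and the percent of Lyz1 in the summed TPM of both, by the genotype on the label. Each line joins littermates, grey for litters 1 to 5 and black dashed for litter 6. Lyz2 was lower and Lyz1 higher under the ErbB4myeKO label in litters 1 to 5, and both lines run the other way in litter 6.

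Other lysozyme genes were listed at or near 0 TPM. Of 6 further members of the family in the table, Lyzl1, Lyzl6, Spaca3 and Lalba were listed at 0 in all 12 libraries, and Lyzl4 and Spaca5 reached at most 0.438 and 0.230 TPM. Neutrophils also express Lyz2, and their markers were therefore summed. The 12 neutrophil markers summed to 41.2 to 375 TPM in the libraries labelled ErbB4myeKO and 42.3 to 186 TPM in those labelled ErbB4FF, with 5 of 12 expressed enough to test, Retnlg at 0 throughout and Ly6g, Mpo and Elane never above 0.549 TPM. Most of the sum was S100a8 and S100a9, and the highest sum, 375 TPM, was in the library labelled ErbB4myeKO of litter 6. Its part in the Lyz2 level of that library was not tested. The 5 tested neutrophil markers went both ways, with mean log2 ratios of 0.45 for Camp (higher in 6 of 6 litters, unadjusted p = 0.0369, limma), 0.30 for S100a8, 0.09 for Mmp8, -0.24 for S100a9 and -0.36 for Ngp. The 10 dendritic cell markers summed to 46.3 to 123 TPM under the ErbB4myeKO label and 34.5 to 95.1 TPM under the ErbB4FF label, and the 12 proliferation genes to 139 to 252 and 137 to 239 TPM. Of 4 dendritic cell markers tested, 1 had an unadjusted p under 0.05, Xcr1 (log2 ratio 0.63), while Batf3 had -0.43 and was lower in 6 of 6 litters. Of 10 proliferation genes tested, 1 did, Mki67 (log2 ratio 0.42), while 5 of the 10 were lower and the median was 0.02. The share over all genes was 8.21%. The adjusted p of Camp, Xcr1, Batf3 and Mki67 was 0.603 by limma. In bulk RNA, fewer cells of a type and less RNA per cell cannot be told apart.

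Genes around the lysozymes were looked at next, since the knock-in sits in Lyz2. Of 13 other protein-coding genes whose start lies within 500 kb, 7 were expressed enough to test. Rab3ip, which encodes a guanine nucleotide exchange factor for Rab GTPases and whose start lies at -332 kb from that of Lyz2, was lower in 6 of 6 litters (mean log2 ratio -0.26 ± 0.22, SD), with an unadjusted p of 0.0468 and an adjusted p of 0.603 by limma. Cpsf6, an mRNA cleavage factor and the nearest tested gene on the side of Lyz1, had 0.25 ± 0.38 (adjusted p = 0.652, limma). Yeats4, Frs2, Cct2, Mdm2 and Slc35e3 had mean log2 ratios from -0.03 to 0.09. In litter 6 the ratios of these 7 genes were between -0.15 and 0.24, whereas those of Lyz2 and Lyz1 were 1.43 and -0.94.

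**Figure D3:**
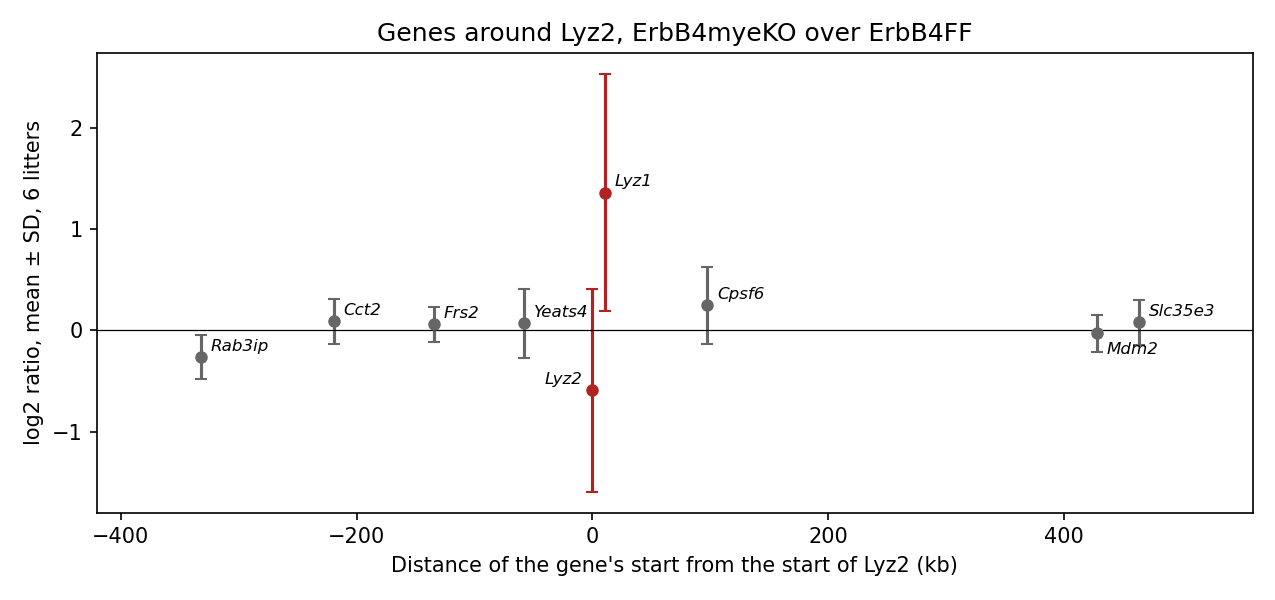
Mean log2 ratio of ErbB4myeKO over ErbB4FF with the SD over 6 litters, against the distance of the start of each gene from the start of Lyz2 in kb. Lyz2 and Lyz1 (red) lie farthest from 0 and have the widest bars, and the 7 tested neighbours (grey) lie between -0.26 and 0.25.

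In the other 7 genes the groups overlapped and no difference passed the test. Across all genes, 0 of 8780 passed an adjusted p of 0.05 (0%), with 721 (8.21%) at an unadjusted p under 0.05 (limma with litter as a block). Among the 8 genes tested 0 passed the adjusted threshold, and 1, Lyz1, had an unadjusted p under 0.05 (0.00964). Groups that do not overlap between labels occurred in 4 of all genes (0.0456%) and in 0 of the 9. The median log2 ratio of the 8 was -0.13 against -0.0007 for all genes tested.

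The 3 transcription factor genes gave no difference beyond the spread between litters. Spi1 was at 267, 192, 144, 287, 356 and 230 TPM in the libraries labelled ErbB4myeKO and 222, 228, 213, 293, 313 and 360 TPM in their littermates, with a mean log2 ratio of -0.17 ± 0.38 (SD, lower in 4 of 6 litters, limma adjusted p = 0.704). Cebpb was at 107, 130, 98.9, 101, 185 and 156 TPM against 106, 106, 151, 98.5, 257 and 172 TPM, a mean log2 ratio of -0.15 ± 0.34 (SD, limma adjusted p = 0.724), and the sign was split 3 to 3. For both genes litter 5 was among the highest under either label. Cebpa had a mean log2 ratio of 0.04 ± 0.93 (SD), from levels so near 0 TPM that no direction is read. Around them, 19 of 23 other myeloid transcription factor genes could be tested. None passed the adjusted threshold, 0 were higher and 2 lower at an unadjusted p under 0.05 (background 336 higher and 385 lower of 8780), and their median log2 ratio was 0.02. The 2 were Maf, a factor of resident macrophages, at -0.34, and Fli1, an ETS factor, at -0.38 (both adjusted p = 0.603, limma). Irf8, a partner of PU.1, was at 864 TPM with a log2 ratio of 0.02.

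Of the surface receptors, Adgre1 varied to either side of 0 and Itgam was lower in most litters. Adgre1 was at 887, 977, 869, 1033, 686 and 830 TPM in the libraries labelled ErbB4myeKO and 889, 898, 848, 883, 662 and 1060 TPM in those labelled ErbB4FF, with a mean log2 ratio of 0.01 ± 0.20 (SD, limma adjusted p = 0.963). Litter 5 was the lowest under both labels. Itgam was at 99.2, 149, 86.9, 138, 90.4 and 122 TPM against 116, 175, 101, 172, 125 and 103 TPM. It was lower in 5 of 6 litters, where the log2 ratio lay from -0.47 to -0.22, and had a log2 ratio of 0.24 in litter 6. The mean was -0.20 ± 0.24 (SD, unadjusted p = 0.0608 and adjusted p = 0.603, limma), and without litter 6 it was -0.29 ± 0.10 (SD), a fold of 0.817, with an unadjusted p of 0.00396 and an adjusted p of 0.767 by limma. Of the Itgam transcript 75% of the 31-base stretches also occur in Gm49368, an annotated gene that overlaps it, which was at 0.308 to 1.3 TPM in these libraries, and 1 of 6 annotated Itgam transcripts was in the table.

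Cd68 and Mpeg1, the lysosomal and phagosomal genes, likewise had both signs among the litters. Cd68 was at 571, 317, 314, 468, 418 and 392 TPM against 519, 471, 435, 544, 338 and 368 TPM, a mean log2 ratio of -0.12 ± 0.35 (SD, higher in 3 of 6 litters, limma adjusted p = 0.770). Mpeg1 was at 1495, 1615, 1673, 1762, 984 and 1254 TPM against 1551, 1797, 1544, 1842, 927 and 1185 TPM, a mean log2 ratio of 0.00 ± 0.11 (SD, limma adjusted p = 0.993). Littermates kept close in Mpeg1 while litters 5 and 6 were the lowest under both labels.

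**Figure D4:**
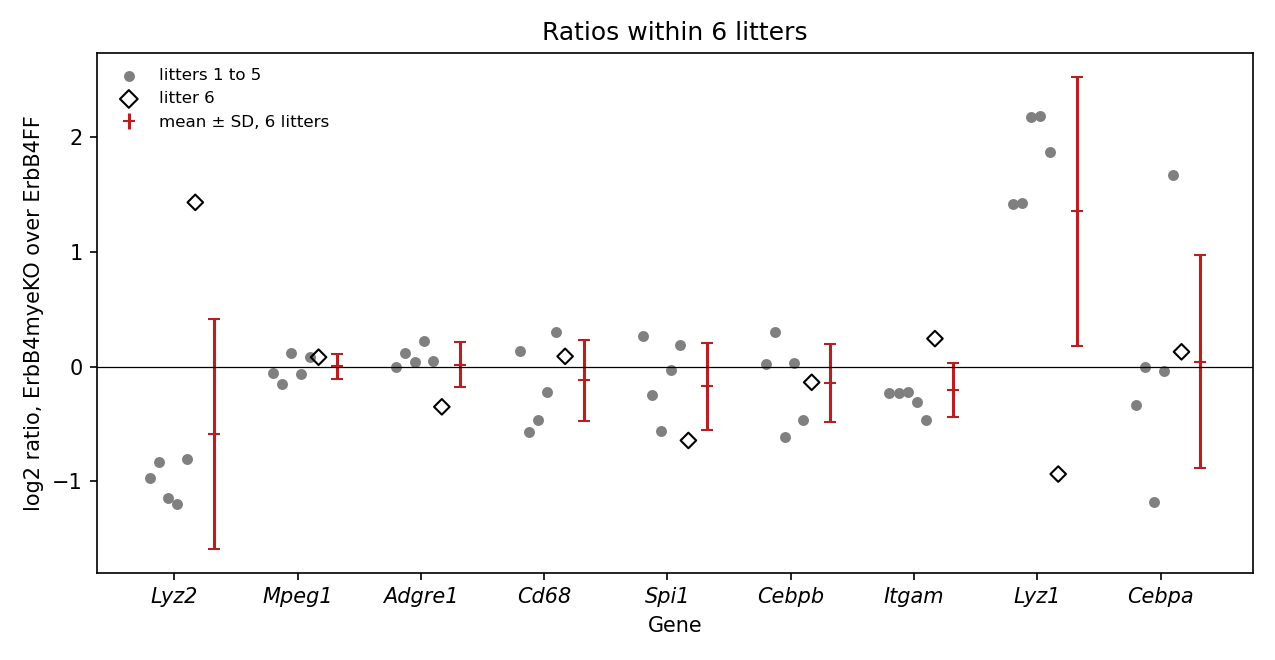
Log2 ratio of ErbB4myeKO over ErbB4FF within each litter for the 9 genes, from log2(TPM + 0.5). Grey points are litters 1 to 5, open diamonds litter 6, and red bars the mean and SD over 6 litters. Lyz2, Lyz1 and Itgam have litters 1 to 5 on 1 side of 0 and litter 6 on the other, while the ratios of Mpeg1 stay between -0.15 and 0.12.

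Litter 6 thus stood against the other 5 litters in 3 of the 9 genes, Lyz2, Lyz1 and Itgam, a pattern seen in 275 of 8780 genes (3.13%). Without litter 6 these 3 genes had an unadjusted p under 0.05 (limma), as had 506 of 8693 genes (5.82%), but nothing is read from that count, since leaving out the litter that opposed the others leaves 5 ratios of the same sign. The SD of the litter ratios was 1.17 for Lyz1 and 1.00 for Lyz2. Set against 1532 genes that averaged 50 TPM or more, whose median was 0.22, these lay at the 98.6th and 98th percentile. Lyz1 averaged 32 TPM and is itself not among the 1532, and the median over all 8780 genes tested was 0.34. Mpeg1 was at the 9.14th percentile of the 1532 genes with an SD of 0.11. For the remaining genes the mean log2 ratio without litter 6 was 0.09 ± 0.09 for Adgre1, -0.16 ± 0.38 for Cd68, -0.01 ± 0.11 for Mpeg1, -0.08 ± 0.34 for Spi1, -0.15 ± 0.38 for Cebpb and 0.02 ± 1.04 for Cebpa (SD over 5 litters).

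Macrophage genes beyond the 9 did not pass the test either. Of 35 further surface and lysosome genes, 32 were tested and 0 passed the adjusted threshold. At an unadjusted p under 0.05, 0 were higher and 6 lower, against 336 higher and 385 lower of all 8780 genes. Of the 32, 20 were lower, with a median log2 ratio of -0.12, against 4408 of 8780 and a median of -0.0007 for all genes. Fcgr1, the high-affinity IgG receptor, was 114 TPM under the ErbB4myeKO label and 212 TPM under the ErbB4FF label on average (log2 ratio -0.86, lower in 6 of 6 litters). Fcgr4, another activating IgG receptor, was 738 against 1026 TPM (-0.44, lower in 6 of 6). Ccr2, the monocyte chemokine receptor, had -0.45 and Coro1a, an actin-binding protein of leukocytes, -0.33, each lower in 6 of 6. Aif1, which encodes IBA1, had -0.38 and Siglec1, a sialic acid-binding receptor, -0.58, each lower in 5 of 6. All 6 had an adjusted p of 0.603 (limma) and were lower in the mean also without litter 6. Itgax, which encodes CD11c, had the highest ratio of the list at 0.44, with an unadjusted p of 0.0694 (limma). Mertk, of the same list, had 0.14 and was higher in 6 of 6 litters. Nothing is read from these counts of signs, as the share over all genes is not given. Tyrobp, an adaptor that macrophages express widely, was listed at 0 in some libraries and up to 327 TPM in others, where a 0 can be a failed estimate, and its ratio of -1.31 is not read further.

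**Figure D5:**
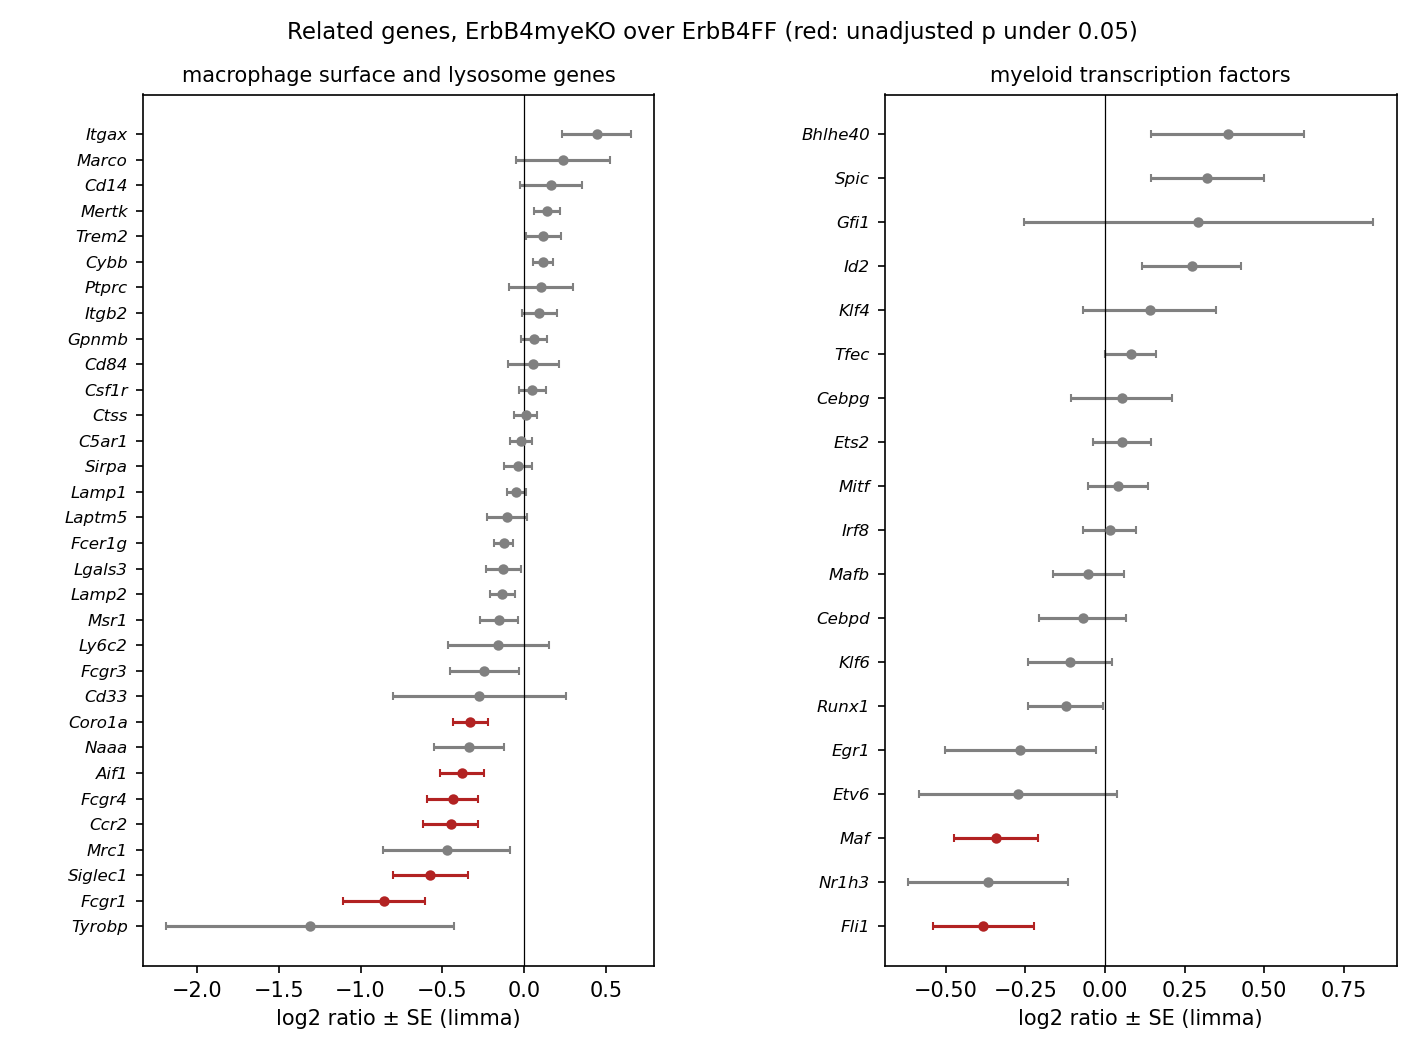
Log2 ratio of ErbB4myeKO over ErbB4FF with its standard error from limma for 32 macrophage surface and lysosome genes (left) and 19 myeloid transcription factors (right). Red genes had an unadjusted p under 0.05, 6 on the left and 2 on the right, all of them below 0, and none passed the adjusted threshold.

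Across libraries the 8 genes tested had correlations of both signs with each other. Over the 12 libraries, which share litters in pairs, the log2 levels of Cebpb and Mpeg1 were opposed (Pearson r = -0.92, Spearman rho = -0.91), and Adgre1 ran with Mpeg1 (r = 0.66, rho = 0.47) and against Lyz2 (r = -0.67, rho = -0.52). The correlation of Cd68 farthest from 0 was that with Cebpb (r = -0.49, rho = -0.39). Lyz1 and Lyz2 had r = -0.42. Genes most like each of the 8, by Pearson r over the 12 libraries among all genes tested, were Trib1 (0.916), Uhrf2 (0.897) and Glipr1 (0.893) for Adgre1, and Axl (0.924), Ccdc6 (0.873) and Disp1 (0.872) for Cd68. Itgam was followed most closely by Narf (0.932), Map3k1 (0.923) and Zfp366 (0.913), and for Mpeg1 they included Dmxl1 (0.989) and Vcpip1 (0.981). For Spi1 they were Psmb10 (0.940), Plbd2 (0.931) and Trex1 (0.928), and for Cebpb Grpel1 (0.934), Ost4 (0.934) and 2310039H08Rik (0.933). The lysozymes had the loosest companions, Tspan3 (0.797), Opa1 (0.796) and Gm10282 (0.794) for Lyz1 and Hmces (0.820), Runx3 (0.816) and Foxo3 (0.806) for Lyz2. These correlations describe 12 libraries in which litters differ in level, and carry no test.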

How the data were processed

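RNA sequencing of 12 cultures was read from 1 deposited table. Per the labels, stranded libraries from polyA RNA were sequenced as single-end reads of 75 bases. The authors estimated abundance with kallisto and deposited TPM for the principal isoforms of APPRIS, which held 59.0% to 74.7% of the TPM of a library. The kallisto version and transcriptome release are not given in the sources used here. A deposited pooled column, the mean natural log of kallisto's normalized counts, served only for depth. Columns with the authors' tests (p-value, q-value and fold) were not used. Of 29213 lines, 405 repeats of a transcript were dropped, transcripts were added up to genes, and the 8780 genes averaging 1 TPM or more were analysed as log2(TPM + 0.5) in limma 3.58.1 (R 4.3.3, lmFit and eBayes with trend), with genotype and litter as terms and Benjamini-Hochberg adjustment over all genes. The pairing comes from the number and batch letter on the labels, and deviations of littermates from their group means correlated at 0.273 to 0.774, against -0.516 to 0.379 for 30 other pairs. Single values had an exact permutation test, two-sided, with 64 swaps of genotype within litters (smallest p 0.0312) or 32 swaps of 5 litters (smallest p 0.0625). Sex is not on the labels and entered only as an alternative, through 4 Y-linked genes. Genes named are the 9 members, Erbb4, the 3 genes most correlated with each member, up to 5 genes per related list with the smallest p under 0.05 and protein-coding genes within 500 kb of Lyz2, and any other was chosen after its values were seen. A result that this rule selects is not reported here. The members and lists were chosen with earlier results of these data known. Alternatives were no litter block, other pseudocounts, filters and scalings, limma without trend, the highest transcript of a gene alone, and each litter left out. The limma step was also checked on simulated data. Sequences were compared with Biopython 1.88 in Python 3.11.15.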

Additional observations from a re-analysis of the deposited data

Results flagged for a closer look

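Among 30 sets of 6 values, those of the 9 genes in each group and their litter ratios together with the Lyz1 share, 4 had a value far from the other 5 by Dixon's test (gap over range above 0.625), where chance gives about 1 in 20, and all 4 came from litter 6. The log2 ratio of Lyz2 was 1.43 in litter 6 and -1.20 to -0.81 in the others, that of Lyz1 was -0.94 against 1.41 to 2.18, and that of Itgam was 0.24 against -0.47 to -0.22. The Lyz1 share of the library labelled ErbB4FF of litter 6 was 1.11%, against 0.103% to 0.212% in the other ErbB4FF libraries. The 3 ratios come from the same pair of libraries, and the share rests on the Lyz1 and Lyz2 values already given, so they are not independent of each other.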

How the results depend on the processing

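No gene passed the adjusted threshold in the fit as described or under 15 of 16 alternatives, and without litter 3 there was 1, Igkv1-88, an immunoglobulin segment (log2 ratio -3.27, limma adjusted p = 0.049). Among the 9 genes 0 passed under all 16. The count of genes at an unadjusted p under 0.05 was 75 without a replicate block, and 413 to 864 when each litter was left out. Among the 9 genes that count was 1 in the fit as described, 3 with the Y-linked covariate (653 of 8780 genes in all), 2 with median ratios (721 of 8728) and 1 to 3 when each litter was left out, the 3 without litter 6. With the Y-linked covariate and all 6 litters, Lyz1 had a log2 ratio of 1.62 (unadjusted p = 0.000805, limma). Lyz2 had -0.84 (unadjusted p = 0.00545, limma) and Itgam -0.25 (unadjusted p = 0.0244, limma). The adjusted p of these 3 genes was 0.652 by limma. Lyz2 and Lyz1 kept their direction in all 16, with mean log2 ratios of -0.99 to -0.47 and 1.19 to 1.81 and limma adjusted p from 0.0556 to 1. The mean difference of the Lyz1 share was 0.457 to 0.942 percentage points over the 7 alternatives run for it, the highest transcript alone and each litter left out. Adgre1 changed sign when litter 2 or 4 was left out (-0.03 to 0.09 over all 6), and so did Mpeg1 with the Y-linked covariate (-0.01), with median ratios (-0.01) and without litter 3 (-0.02), 5 or 6 (both -0.01), with -0.02 to 0.03 over all 6 left-out litters. No gene was called with or without the litter block, so there was no call that it could move. The count at an unadjusted p under 0.05 (limma) was 721 with the block and 75 without it. By the authors' mean counts, depth limits Cebpa most of the 9 genes. The level of Lyz1 also depends on how reads shared with Lyz2 were split.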
